A study of Mus musculus with 8 samples.

Results

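The 10 genes described here carry out the uptake and mitochondrial oxidation of fatty acids: Cd36 and Fabp3 (uptake and binding), Cpt1a, Cpt1b and Cpt2 (the carnitine shuttle) and Acadvl, Acadm, Hadha, Hadhb and Acaa2 (beta-oxidation in the matrix). They were chosen by name, without use of their values. Each gene took the assembled locus on its own strand with the largest overlap of its GENCODE M21 span, if the shared part was at least 0.5 of the joint span. 9 of the 10 genes had such a locus, and Cd36 took the sum of its 11 RefSeq transcript entries. All 10 were above 0 in at least 1 library and so were tested among 35801 features, out of 65265 listed.

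RNA came from HL1 cells, a contracting cell line derived from a mouse atrial tumour, all grown in Claycomb medium with 10% FBS, 0.1 mM norepinephrine with 30 mM ascorbic acid, and 5% glutamine. A buffer of urea and detergent (0.5 M and 0.5%) split the nuclei into a soluble part, the nucleoplasm, and a pellet, the chromatin. Short stranded reads of 50 bp were made for 3 chromatin and 3 nucleoplasm libraries, and long nanopore cDNA reads for 2 chromatin libraries. No treatment, time point or genotype was compared. By the study's methods the short-read replicates were independent cultures of this single line; for the long-read replicates this is not given in the sources used here.

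Heart muscle takes most of its energy from long-chain fatty acids. CD36 carries them across the plasma membrane, FABP3 binds them in the cytosol, CPT1 at the outer mitochondrial membrane joins them to carnitine, and CPT2 on the inside returns them to coenzyme A. In the matrix each turn of beta-oxidation shortens the chain through a dehydrogenase, a hydratase, a second dehydrogenase and a thiolase.

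The short-read table held between 91657034 and 121773350 recovered reads per library. Malat1 and Pvt1, RNAs kept at chromatin, were higher there, with log2 differences of 3.82 and 3.93, and the mRNAs Gapdh and B2m were lower, with log2 differences of -2.07 and -2.67. Of 9 atrial cardiomyocyte markers, 7 had a row. Myl7, Actc1, Tnni3, Ryr2 and Actn2 all held at least 725 normalized counts in every library. The defining atrial peptide gene Nppa lay between 10.4 and 113, and Sln between 18.7 and 376. Of the fibroblast markers, Col1a1 held 101002 to 344726 counts, Col3a1 18906 to 113109 and Pdgfra 699 to 2336. Col1a2 (42.7 to 514) and Dcn (20.3 to 350) were lower. The mean of Col1a1 over all short-read libraries was 183593, against 85304 for Ryr2, the highest cardiomyocyte marker. The order differed by fraction: Ryr2 had the higher mean in chromatin (149517 against 109925) and Col1a1 in nucleoplasm (257260 against 21092). These counts were not divided by length. Replicate 3 stood apart in both fractions: the 7 cardiomyocyte markers were at 0.15 to 0.60 of the mean of replicates 1 and 2, and 5 of the 6 fibroblast markers were at 1.08 to 5.27 of it. The sixth, Postn, was at 0 in all chromatin libraries and at 159 in nucleoplasm replicate 3. Endothelial Cdh5 was at 0 throughout and Pecam1 was above 0 in 2 libraries, while Kdr (808 to 2569.8 normalized counts) and Tek (187 to 364) were present in every library.

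Of the 10 members, 9 were lower in chromatin than in nucleoplasm, and the locus matched to Cpt1b was higher. The log2 differences (chromatin over nucleoplasm) of the lower ones ran from -1.93 in Fabp3 to -0.78 in Hadhb, and the median of all 10 was -1.52. In each of the 10 the libraries of the fractions did not overlap. The share of all features without such overlap was not counted, so this does not set the members apart. Among all features 20.9% were lower and 26.9% higher in chromatin by the same call (limma, adjusted p below 0.05), with a median log2 difference of 0.38. Among assembled loci of protein-coding genes 43.4% were lower and 25.5% higher, with a median of -0.32. None of the 10 differed by more than 4 fold in this fit, the size the study asked of a chromatin-enriched RNA. Of the 35801 features, 1751 were lower and 5626 higher by that size, and of 10955 protein-coding loci 664 and 577. In some alternative fits Fabp3 and Acadvl passed it as lower, with log2 differences of -2.16 without nucleoplasm replicate 3 and -2.23 without chromatin replicate 3. The locus matched to Cpt1b passed it as higher, the direction the study asked for, when libraries were scaled to the ERCC spike-in standards.

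These differences are relative to the rest of each library. When the libraries were scaled to equal totals of the ERCC spike-in standards, the median of all features moved from 0.38 to 0.84, 3108 features were lower and 12459 higher in place of 7476 and 9634, and the members split into 4 lower (Hadha, Acaa2, Cpt2 and Fabp3), 1 higher and 5 not called. No member changed direction. Without replicate 3 of both fractions the split was again 9 lower and 1 higher, with log2 differences of the lower ones from -2.03 to -0.79.

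**Figure D1:**
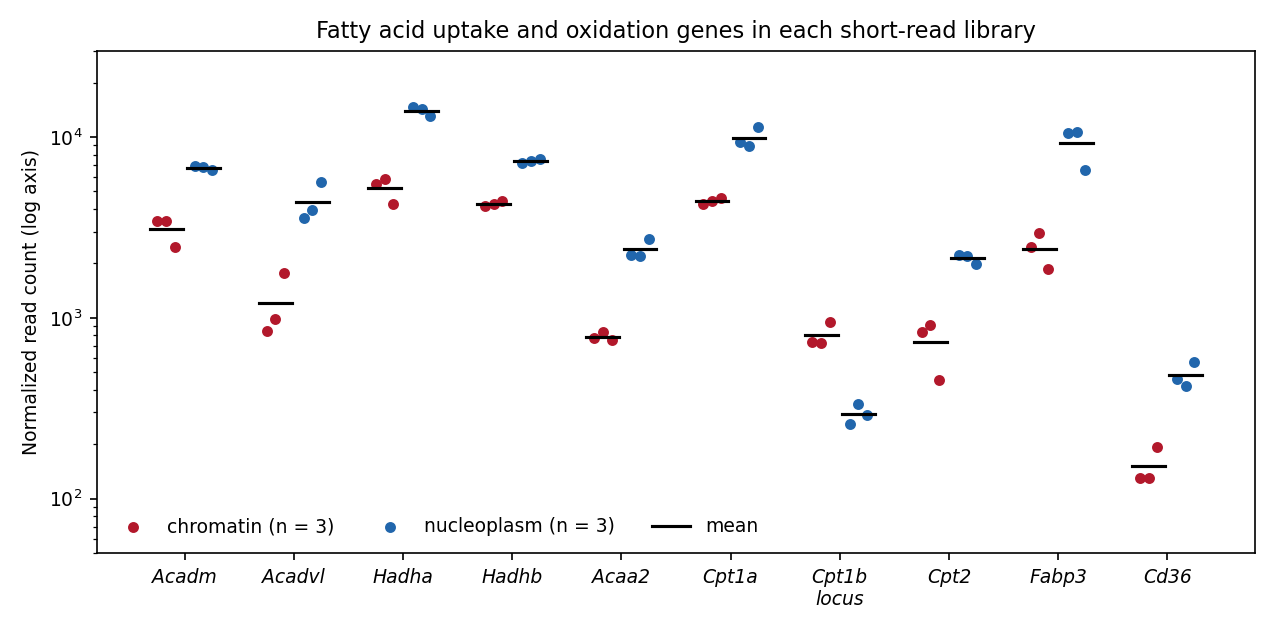
Normalized read count (log axis) of each member in the 3 chromatin and 3 nucleoplasm short-read libraries; points are libraries in replicate order and lines are means. The nucleoplasm points lie above the chromatin points in 9 members, and below them at the locus matched to Cpt1b.

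The members that encode enzymes of beta-oxidation in the matrix all lay lower in chromatin. Acadvl encodes the very long-chain acyl-CoA dehydrogenase, which starts the breakdown of the longest chains (chr11:70010183-70015411, minus strand, mm10). Its normalized counts were 845, 990.4 and 1768 in the chromatin libraries and 3546, 3937 and 5639 in the nucleoplasm libraries (replicates in order of their number, here and for the other members). Replicate 3 was the highest library of each fraction, and no chromatin library reached the lowest nucleoplasm library. The log2 difference was -1.91 ± 0.319 (SE, limma adjusted p = 0.00338).

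Acadm encodes the medium-chain acyl-CoA dehydrogenase, the enzyme deficient in MCAD deficiency (chr3:153922357-153944632, minus strand). Its counts were 3418, 3419 and 2451 in chromatin and 6918, 6804 and 6583 in nucleoplasm. The nucleoplasm libraries lay close together and the third chromatin library was the lowest. Chromatin over nucleoplasm gave a log2 difference of -1.14 ± 0.147 (SE, limma adjusted p = 0.0011).

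Hadha and Hadhb encode the alpha and beta subunits of the mitochondrial trifunctional protein, which performs the last steps for long chains: hydratase and dehydrogenase on the alpha subunit and thiolase on the beta subunit. Hadha (chr5:30118304-30155162, minus strand) had 5465, 5882 and 4251 counts in chromatin and 14712, 14248 and 13058 in nucleoplasm, the highest nucleoplasm counts of the members. Hadhb (chr5:30155248-30184593, plus strand) had 4137, 4268 and 4437 in chromatin and 7169.7, 7339.9 and 7515 in nucleoplasm. Both were lower in chromatin, Hadha by a log2 difference of -1.44 ± 0.14 (SE, limma adjusted p = 0.00035) and Hadhb by -0.78 ± 0.071 (SE, limma adjusted p = 0.00027). In fold terms nucleoplasm held 2.69 times the chromatin mean for Hadha and 1.72 times for Hadhb.

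The subunits make up a single complex, so their ratio within each library was compared. The log2 ratio of Hadha to Hadhb was 0.40, 0.46 and -0.06 in chromatin and 1.04, 0.96 and 0.80 in nucleoplasm. All 3 nucleoplasm values were above all 3 chromatin values. The difference was -0.66, and the exact two-sided permutation test gave p = 0.1, the smallest that 3 libraries against 3 allow (0.1 after adjustment over the 3 ratios tested). Chromatin replicate 3 lay apart, and without replicate 3 of both fractions the difference was -0.56.

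The annotated starts of Hadha and Hadhb face away from each other with 85 bases between them. That stretch is given because it is shared by both subunits. The sequences of Acadm, Acadvl and Cpt1a are given as 3 of the 4 members whose RefSeq window holds AGGTCA. Other members lower in chromatin are not printed, and a relation of these sequences to the fractions was not tested. The sequences are RefSeq windows (GRCm38.p6) cut to bases outside every annotated exon, printed 5′ to 3′ on the strand of the gene (Hadhb for the shared stretch). Capitals mark GGGCGG, the GC box, in the first and AGGTCA, the core site that nuclear receptors such as the PPARs bind, in the others, each on either strand.
Hadha-Hadhb, chr5:30155163-30155247, plus strand: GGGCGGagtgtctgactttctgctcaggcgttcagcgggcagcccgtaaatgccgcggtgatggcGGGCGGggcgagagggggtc
Acadm, chr3:153944633-153944893, minus strand: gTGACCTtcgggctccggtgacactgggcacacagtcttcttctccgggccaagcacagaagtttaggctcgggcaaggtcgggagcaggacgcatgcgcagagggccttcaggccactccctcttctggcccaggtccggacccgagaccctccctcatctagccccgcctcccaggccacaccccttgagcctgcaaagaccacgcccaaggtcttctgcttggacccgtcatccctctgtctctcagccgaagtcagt
Acadvl, chr11:70015412-70015678, minus strand: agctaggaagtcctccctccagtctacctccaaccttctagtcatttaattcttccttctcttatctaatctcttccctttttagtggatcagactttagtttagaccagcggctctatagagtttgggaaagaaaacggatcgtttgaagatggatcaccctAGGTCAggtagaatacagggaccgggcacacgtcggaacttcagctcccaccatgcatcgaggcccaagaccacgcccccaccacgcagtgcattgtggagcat
Cpt1a, chr19:3323051-3323284, plus strand: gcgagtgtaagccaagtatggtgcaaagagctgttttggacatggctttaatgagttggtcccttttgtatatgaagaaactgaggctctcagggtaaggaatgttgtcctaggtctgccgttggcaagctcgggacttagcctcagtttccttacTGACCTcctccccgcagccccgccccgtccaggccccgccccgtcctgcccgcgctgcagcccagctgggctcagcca

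The shared stretch holds 2 GC boxes. The Acadm, Acadvl and Cpt1a stretches hold 1 AGGTCA each, which begins 260, 104 and 78 bases before the end of the stretch. The Acadm and Acadvl stretches end at the annotated start of the gene, and the Cpt1a stretch lies 950 bases inside the annotated gene, before the start of its RefSeq transcript. Full RefSeq windows of 300 bases were found for 8 members (Cpt1b and Acaa2 had no entry). AGGTCA was in 4 of the 8 (Acadm, Acadvl, Cpt1a and Cd36) and in 16.3% of all 32851 windows in the table. GGGCGG was in 5 of the 8 (Hadha, Hadhb, Cpt1a, Cpt2 and Cd36) and in 35.7% of all windows; the Hadha and Hadhb windows overlap. CCAAT was in Cpt1a and Cd36 (37.4% of all windows), and TATAAA and CACGTG were in none of the 8 (13.6% and 7.15% of all). These are matches of letters only.

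Acaa2 encodes the acetyl-CoA acyltransferase that closes the cycle for medium chains (chr18:74779197-74806208, plus strand). Its counts were 769, 834 and 751 in chromatin and 2235, 2211 and 2720.0 in nucleoplasm. The 3 chromatin libraries differed little from each other, and Acaa2 had the smallest adjusted p of the members. The log2 difference was -1.60 ± 0.111 (SE, limma adjusted p = 9.73e-05).

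In the carnitine shuttle, Cpt1a and Cpt2 were lower in chromatin and the locus matched to Cpt1b was higher. Cpt1a encodes the carnitine palmitoyltransferase that predominates in liver and fetal heart and is the step inhibited by malonyl-CoA (chr19:3322334-3385733, plus strand). Its counts were 4237, 4440.3 and 4594 in chromatin and 9426, 8939.9 and 11295 in nucleoplasm. The nucleoplasm mean was 2.24 times the chromatin mean, with a log2 difference of -1.15 ± 0.11 (SE, limma adjusted p = 0.000318).

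Cpt2 encodes the inner-membrane transferase (chr4:107903981-107923610, minus strand). Its counts were 838, 909 and 454 in chromatin and 2218, 2192 and 1987 in nucleoplasm. Chromatin replicate 3 was at 0.52 of the mean of chromatin replicates 1 and 2, whereas nucleoplasm replicate 3 was at 0.90 of nucleoplasm replicates 1 and 2. This gave a log2 difference of -1.60 ± 0.27 (SE, limma adjusted p = 0.00355).

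Cpt1b encodes the muscle form of the outer-membrane transferase (chr15:89416405-89425863, minus strand). The locus matched to it had 736, 723 and 952 counts in chromatin and 259.7, 332 and 289 in nucleoplasm. Every chromatin library was above every nucleoplasm library, the opposite of the other members, and the chromatin mean was 2.74 times the nucleoplasm mean. The log2 difference was 1.45 ± 0.158 (SE, limma adjusted p = 0.000565), and 1.31 without replicate 3 of both fractions.

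This locus is not Cpt1b alone. It runs from 89416405 to 89429952 and takes in the neighbouring choline kinase gene Chkb (89426360 to 89429908), which lies upstream on the same strand. Its overlap with Cpt1b was 0.698 of the joint span and with the annotated readthrough gene Gm44502, which joins sequence of both, 0.981. No separate row met the rule for Chkb, so reads of Cpt1b, Chkb and the readthrough RNA cannot be told apart here. At a minimum overlap of 0.8 Cpt1b had no locus. The annotated readthrough transcript joins an exon that ends at 89426488, inside the last exon of Chkb but at an edge no annotated Chkb exon shares, to an exon of Cpt1b. That junction is shown because those letters are what would set it apart from Cpt1b; the Cpt1b side is in capitals (M21 transcript, minus strand).
Readthrough junction, 15 bases on each side: gggctgtgcctcaaaGTGCTGAATAAACCC

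**Figure D2:**
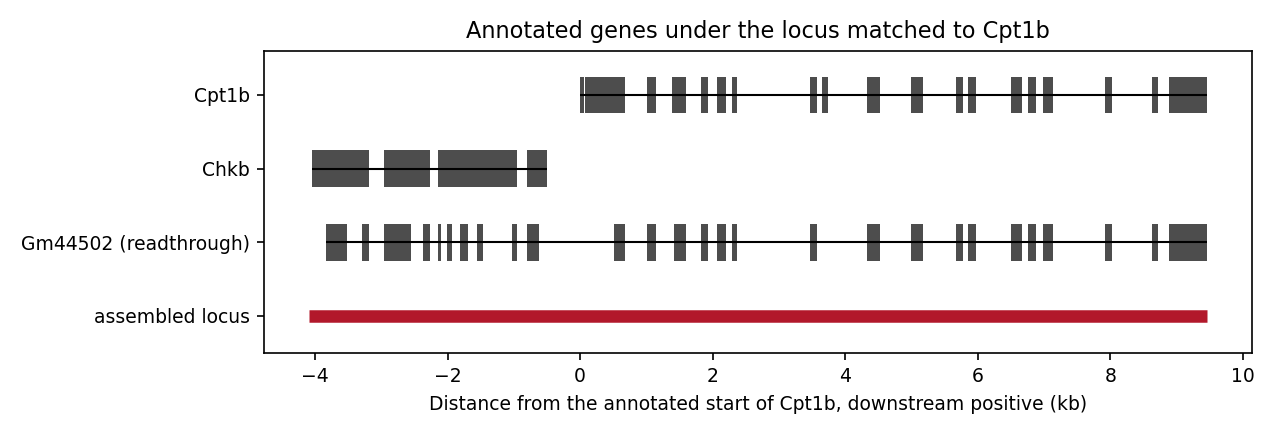
Annotated exons (grey boxes) of Cpt1b, Chkb and the readthrough gene Gm44502, and the span of the assembled locus whose counts were used (red), by distance in kb from the annotated start of Cpt1b. The locus covers Cpt1b and Chkb from end to end, as the readthrough gene nearly does.

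The log2 ratio of Cpt1a to the Cpt1b locus was 2.52, 2.62 and 2.27 in chromatin and 5.18, 4.75 and 5.28 in nucleoplasm. The log2 ratio of the Cpt1b locus to Cpt2 was -0.19, -0.33 and 1.07 in chromatin and -3.09, -2.72 and -2.78 in nucleoplasm. Neither ratio overlapped between fractions. The differences were -2.60 and 3.05, each with an exact two-sided permutation p = 0.1, again the smallest possible (0.1 after adjustment).

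Of the genes of uptake and binding, both were lower in chromatin. Fabp3 encodes the fatty acid-binding protein of heart muscle (chr4:130308595-130315463, plus strand). Its counts were 2454, 2947 and 1856 in chromatin and 10490.3, 10723 and 6609.8 in nucleoplasm. Replicate 3 was the lowest library of each fraction, at 0.69 and 0.62 of the mean of the others. It was also the lowest for the cardiomyocyte markers (0.15 to 0.60) and for the fraction control Gapdh (0.69 and 0.67), whereas Pvt1 was at 1.40 and 1.39. What lay behind this spread was not tested. The log2 difference was -1.93 ± 0.253 (SE, limma adjusted p = 0.00121), the lowest of the members, and -1.98 without replicate 3. Its assembled locus runs to 130317692, past the annotated end.

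Cd36 encodes the fatty acid translocase (chr5:17781690-17888801, minus strand). Its summed counts were 130.1, 129.95 and 194 in chromatin and 458, 418 and 569.7 in nucleoplasm, the lowest of the members in chromatin; in nucleoplasm the Cpt1b locus was lower. Replicate 3 was the highest library of each fraction, at 1.49 and 1.30 of the mean of the others. The sums gave a log2 difference of -1.68 ± 0.214 (SE, limma adjusted p = 0.00108). In bulk RNA, fewer cells that express a gene and less RNA per cell cannot be told apart.

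The single transcript entries of Cd36 could not be read in the same way as their sum. In chromatin replicate 2, 10 of the 11 entries were at 0 and all 129.95 counts stood on the entry NM_001159558.1. In chromatin replicate 1 that entry was at 0 and XM_006535620.3 was the highest, with 54.9 of 130.1 counts. In nucleoplasm replicate 3 none was at 0 and the highest entry held 30.3% of the total. XM_006535623.3 led in nucleoplasm replicates 1 and 2, and a different entry led in each of the other 4 libraries. The sums of replicates 1 and 2 of chromatin differed by less than 1 count.

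**Figure D3:**
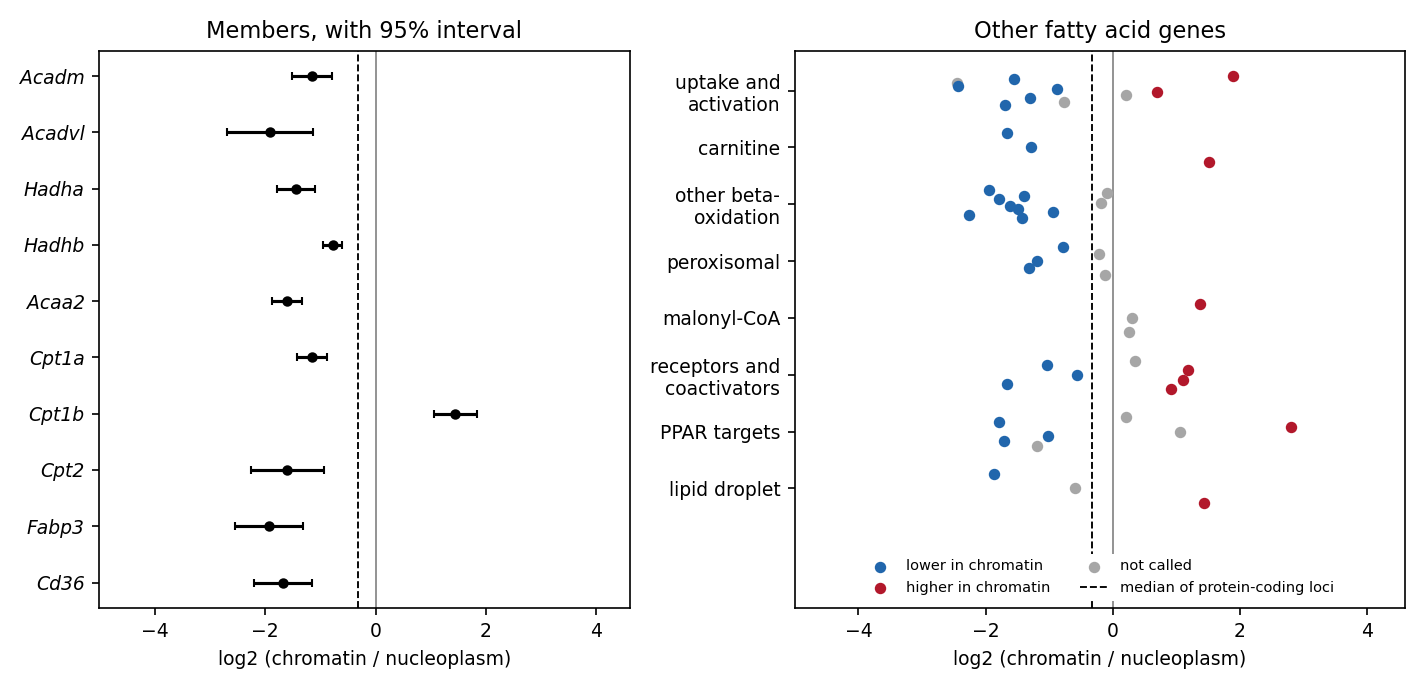
Log2 difference (chromatin over nucleoplasm) of the members with their 95% intervals (left) and of the other fatty acid genes by role (right; blue lower in chromatin, red higher, grey not called at adjusted p below 0.05). The dashed line is the median of protein-coding loci, -0.32; the intervals of all members but Cpt1b lie to its left.

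Levels were compared between genes per kb of summed exon length. In chromatin the mean normalized count per kb was highest for Fabp3 (3779 ± 854, SD, n = 3) and lowest for Cd36 (42.1 ± 10.2) and the Cpt1b locus (125 ± 20.0). Between these lay Acadm (791), Hadhb (642), Hadha (608), Cpt1a (579), Acaa2 (523), Acadvl (447) and Cpt2 (309.5), and each neighbour in that run overlapped the next. Fabp3 stood clear of Acadm, Cpt2 of the Cpt1b locus, and the Cpt1b locus of Cd36. The Fabp3 level rests on a locus longer than its annotated exons, so its length is uncertain.

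In nucleoplasm the order per kb was Fabp3 (14491 ± 3610), Acadm (1729.7 ± 43.5), Hadha (1639), Acadvl (1629), Acaa2 (1593), Cpt1a (1294), Hadhb (1101), Cpt2 (900.1 ± 53.5), Cd36 (134 ± 21.9) and the Cpt1b locus (45.6 ± 5.65). From Acadm to Cpt1a each neighbour overlapped the next, and from Cpt1a on none did. Hadhb moved from the third place in chromatin to the seventh in nucleoplasm, and Cd36 and the Cpt1b locus changed places.

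Over protein-coding loci with a mean of at least 100, longer loci were higher in chromatin: the median log2 difference was -1.63 up to 5 kb of span, -0.31 at 20 to 50 kb and 0.54 above 100 kb, and Spearman's rho of span with difference was 0.51 over 9851 loci, which share the same 6 libraries. In the members rho was 0.26 (n = 10), and 0.45 without Cpt1b. Each of the 9 lower members lay below the median of its span class, with log2 differences from that median of -0.46 in Hadhb to -2.22 in Cd36. Cpt1a, which spans 63.5 kb, had -1.15 against a class median of 0.09. The classes were made by annotated gene span, and the members were placed by the span of their locus. The Cpt1b locus, at 13.5 kb, had 1.45 against -0.73. By its annotated span of 9459 bases Cpt1b would fall in the class of 5 to 10 kb, with a median of -1.04. The 95% intervals of all 10 left out the median of their class. The share of other protein-coding loci whose interval leaves out that median was not counted, so this does not set the members apart.

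**Figure D4:**
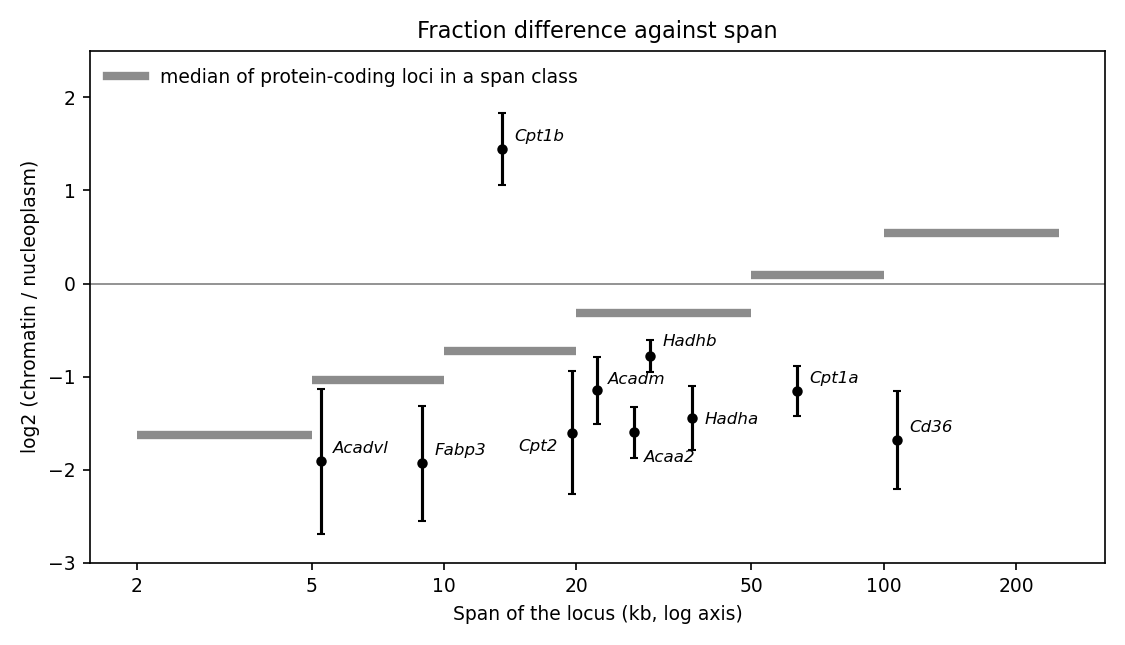
Log2 difference (chromatin over nucleoplasm) of each member, with its 95% interval, against the span of its locus (kb, log axis). Grey bars are the medians of protein-coding loci with a mean of at least 100 in each class of annotated gene span, the outer classes being open-ended. All members but Cpt1b lie below the bar of their class.

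Genes that overlap a member or start within 5 kb of its start were read as neighbours. Dvl2, a Wnt signalling gene on the opposite strand that overlaps the end of Acadvl, had 3294 ± 117 counts in chromatin and 3118 ± 293 in nucleoplasm (SD, n = 3), with a log2 difference of 0.08 ± 0.0947 (SE, limma adjusted p = 0.501). The locus matched to Dvl2 runs to 70016599, past the annotated end of Dvl2 at 70012301 and across the whole of Acadvl. These counts can therefore not be taken as Dvl2 alone. Garem2, on the opposite strand at the end of Hadha, was lower in chromatin (log2 difference -0.56 ± 0.153, SE, limma adjusted p = 0.0248). Zcchc17 (130315383 to 130359943, opposite strand) shares only the last 81 bases of Fabp3, and had 819, 762 and 961 counts in chromatin and 2240.4, 2061 and 2428 in nucleoplasm and was lower in chromatin, with a log2 difference of -1.41 ± 0.119 (SE, limma adjusted p = 0.000203). The short-read counting used strand, so these rows are separate from those of the members. The microRNA entry Mir1960 inside Hadhb on the same strand held 6, 11 and 7 recovered reads in chromatin and 2, 1 and 2 in nucleoplasm. Other neighbours (Dlg4, Mir324, Scarna17, Gm23119, AL626765.1, C730034F03Rik and Gm10570) were not analysed here.

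The rest of the pathway was described over 51 other fatty acid genes, of which 48 were tested: 25 were lower in chromatin, 9 higher and 14 not called, with a median log2 difference of -0.91. With the replicate number as a block 29 were lower and 14 higher, and under ERCC scaling 14 were lower and 15 higher. Among protein-coding loci 43.4% were lower and 25.5% higher in the reported fit, with a median of -0.32. Over all features the block also raised both counts, and ERCC scaling gave 3108 lower and 12459 higher in place of 7476 and 9634. Whether this list, or any role within it, departs from the protein-coding split was not tested. Of the other enzymes of beta-oxidation, 8 of 10 tested were lower and none higher (median -1.45). Within each role the highest and the lowest gene with a mean of at least 100 counts are named. Etfb, a subunit of the flavoprotein that takes electrons from the acyl-CoA dehydrogenases, had the lowest value of these (-2.26 ± 0.271, SE, limma adjusted p = 0.000834). Acadl, the long-chain dehydrogenase, had the highest, with 10543 ± 3276 counts in chromatin and 10909 ± 1988 in nucleoplasm (log2 difference -0.09, limma adjusted p = 0.813, but 0.65 under ERCC scaling and 0.20 without chromatin replicate 3). Acat1 and the coactivator Ppargc1a had no row under the rule and were not analysed here, and Slc27a6 was at 0 in all libraries.

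Among carnitine genes, Slc25a20, the carrier that brings acylcarnitine across the inner membrane, was lower in chromatin (-1.66 ± 0.0867, SE, limma adjusted p = 4.0e-05), with 424 ± 19.3 counts against 1338 ± 57.0 (SD, n = 3). Slc22a5, the plasma membrane carnitine transporter, was higher in chromatin (1.52 ± 0.14, SE, limma adjusted p = 0.000281). Of 10 tested genes of uptake and activation, 5 were lower and 2 higher. The fatty acid transporter Slc27a1, read from its accession entries, was the highest of these (1.89 ± 0.239, SE, limma adjusted p = 0.00104), but only 0.36 (limma adjusted p = 0.0325) when all rows on its strand were summed. Fabp4 was the lowest (-2.44 ± 0.85, SE), with a limma adjusted p of 0.058, and of 0.000152 with the replicate block; it was at 4.43 and 4.75 of the mean of the others in replicate 3.

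Of 5 peroxisomal genes, 3 were lower and none higher, from Acaa1a, a peroxisomal thiolase (-1.32 ± 0.137, SE, limma adjusted p = 0.000456), to Abcd3, a transporter of the peroxisomal membrane (-0.12, limma adjusted p = 0.425, and 0.61 under ERCC scaling). Of 3 genes of malonyl-CoA, the inhibitor of CPT1, Acaca, an acetyl-CoA carboxylase, was higher in chromatin (1.37 ± 0.183, SE, limma adjusted p = 0.00132). Mlycd, which breaks malonyl-CoA down, had 0.26 (limma adjusted p = 0.161, and 0.0325 with the block). Of 3 genes of lipid droplets, Dgat1, which catalyses the last step of triglyceride synthesis, was higher (1.45 ± 0.112, SE, limma adjusted p = 0.000141) and Pnpla2, a triglyceride lipase, lower (-1.87 ± 0.353, SE, limma adjusted p = 0.0057).

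The nuclear receptors and coactivators that control these genes did not move one way, with 3 of 7 tested lower and 3 higher. Ppara, a receptor for fatty acids, had 767 ± 110 counts in chromatin and 599.6 ± 68.3 in nucleoplasm (log2 difference 0.35, limma adjusted p = 0.0957, and 0.0103 with the block). Ppargc1b, a coactivator, was the highest (1.11 ± 0.0821, SE, limma adjusted p = 0.000119) and Esrra, the estrogen-related receptor alpha, the lowest (-1.66 ± 0.114, SE, limma adjusted p = 9.2e-05). Of 7 genes listed as PPAR targets 3 were lower and 1 higher, with Ucp2, an uncoupling protein, at -1.79 ± 0.248 (SE, limma adjusted p = 0.00156) and Pdk4, a kinase that holds back glucose oxidation, at 0.21 (limma adjusted p = 0.195, and 0.0283 with the block). The 1 higher gene, Ucp3, held only 13, 4 and 10 recovered reads in chromatin and 0, 0 and 2 in nucleoplasm, so its call rests on few reads.

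The assembled loci whose profile over the 6 short-read libraries was most like the mean profile of the members were Ndufa10, a subunit of respiratory complex I, Ptrh2, a mitochondrial peptidyl-tRNA hydrolase, and Exosc5, a subunit of the RNA exosome. Their distances were 0.062 to 0.0695 (Euclidean, log2 values centred on their mean) among 11028 candidates with a mean of at least 100. Their log2 differences were -1.20, -1.17 and -1.17.

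In the long-read chromatin libraries, 9 of the 10 members had a transcript of the same strand above 0 inside the gene (ends up to 200 bases beyond it), and Cpt1b had none. The members summed to 329 and 208 TPM in replicates 1 and 2. Fabp3 was highest at 98.0 and 32.7 TPM, followed by Acadm at 77.6 and 45.5, and Cd36 was lowest of those detected at 0.25 and 0. Between them lay Hadhb (36.0 and 33.9 TPM), Hadha (36.2 and 14.8), Cpt2 (27.2 and 23.4), Acaa2 (26.4 and 17.3), Cpt1a (15.4 and 20.3) and Acadvl (11.7 and 19.7). Acadm was above Fabp3 in replicate 2 and below it in replicate 1, so their order was not settled by these 2 libraries. TPM values keep no depth, so how many reads stand behind each is unknown.

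Of the 5 long-read transcripts listed over the locus matched to Cpt1b, the readthrough entry NR_004843.2 was at 2.62 and 0.39 TPM, while the Cpt1b entry NM_009948.2 and the 3 Chkb entries were listed at 0 in both libraries. This is the gene whose short-read locus also matched the readthrough gene best. The Cd36 value came from NM_001159558.1, the entry that took all short-read counts in chromatin replicate 2.

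Across the 10 members the long-read mean and the short-read chromatin level per kb had a Spearman's rho of 0.90 (n = 10 genes, which share libraries; a description), and of 0.47 when the short-read count was not divided by length. Most of the signal lay in transcripts covering at least 0.5 of the joint span with the gene. Pieces inside a gene made up 40.8% of the mean of Cpt2, 27.2% of Hadhb and 24.0% of Hadha, and 2.01% of Acadm.

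Transcripts on the opposite strand inside the members summed to 74.0 and 71.9 TPM, or 18.4% and 25.7% of the total on both strands. Acadm carried the most, with 29.6 and 26.2 TPM, and at Cpt1a they made up 39.3% and 43.1% of the total on both strands. At Hadha the opposite strand held 8.74 and 14.6 TPM, against 36.2 and 14.8 on its own. A model on the opposite strand of Fabp3 (chr4:130308626-130315870) was not in these sums because it ends 407 bases past the gene, and it held 220.4 and 103 TPM, more than Fabp3 itself. That model lies over Fabp3 and shares 488 bases with Zcchc17. The direct cDNA kit does not mark strand, and whether reads were assigned a strand before this table was made is not given in the sources used here, so which strand such reads came from is uncertain. A model on the opposite strand of Acaa2 covered 0.954 of the joint span, held 16.7 and 8.19 TPM and was also outside the sums, since it reaches beyond the gene.

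**Figure D5:**
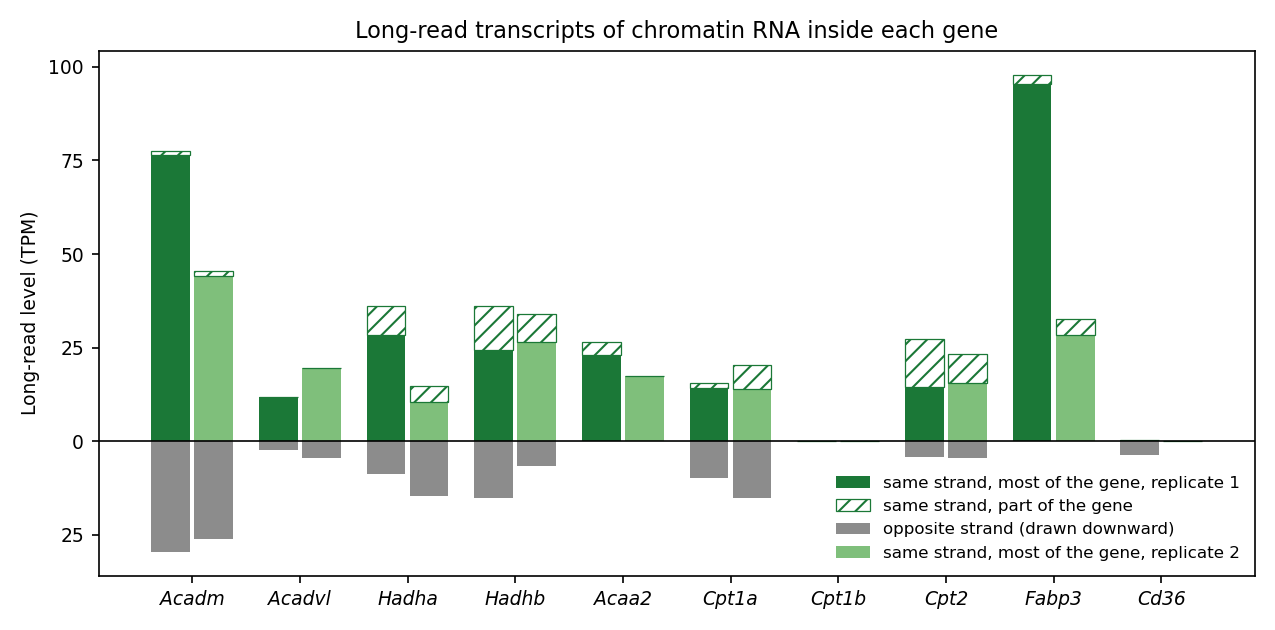
Long-read level (TPM) inside each member in chromatin replicates 1 (dark) and 2 (light): same-strand transcripts covering most of the gene (solid) and pieces of it (hatched) are drawn upward, and opposite-strand transcripts downward in grey. The opposite-strand models that reach beyond Fabp3 and Acaa2 are not drawn. Fabp3 and Acadm are highest, Cpt1b has no bar, and Acadm has the longest bars on the opposite strand.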

How the data were processed

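RNA of HL1 chromatin and nucleoplasm was measured in 3 short-read libraries each, and chromatin in 2 long-read libraries. Groups were taken from the sample titles, since the fraction label reads chromatin for every library. The authors aligned short reads to mm10 with HISAT2 2.1.0 (version from the submitters' processing notes), assembled and counted them with StringTie and prepDE, and deposited counts divided by DESeq2 size factors, a signal that is not a raw count. In these, whole reads were recovered for 100% of values, within 0.01. The authors aligned long reads with minimap2 and deposited StringTie TPM values.

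From these, log2(normalized count + 1) of the 35801 features that exceeded 0 in any short-read library was fitted with limma 3.58.1 (trend, R 4.3.3), and p-values were adjusted by the method of Benjamini and Hochberg. A fold on this scale understates changes of low genes. The members, gene lists and tests were chosen with earlier results of these data known. The text names all members, the highest and lowest gene of each role with a mean of at least 100 together with Ppara, Ppargc1a, Acadl and Slc25a20, the neighbours within 5 kb, and the 3 loci most alike. Ucp3 is named because its call rests on few reads. The fits were tested on simulated data. Libraries with equal replicate numbers may be pairs. Their deviations from the group means correlated at 0.12, 0.103 and 0.25 over 23897 features. For unequal numbers the values were -0.158 to 0.063. The deviations of 3 libraries sum to 0, so these correlations are not independent and do not settle the pairing. The reported fits and ratio tests did not use it. Alternatives included other pseudocounts, filters, scalings, edgeR 4.0.16 and DESeq2 1.42.0 on recovered reads, a replicate block and libraries left out. The 200-base tolerance for long-read ends was chosen after the data were seen.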

Additional observations from a re-analysis of the deposited data

How the results depend on the processing

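Of 188 alternatives for single members, 183 kept the direction and the call and 5 lost the call, all under ERCC scaling: Acadm (-0.41, limma adjusted p = 0.14), Acadvl (-1.18, 0.0692), Hadhb (-0.04, 0.872), Cpt1a (-0.42, 0.252) and Cd36 (-0.95, 0.0683). The ERCC standards made up 0.193% to 0.209% of the counts in chromatin libraries and 0.297% to 0.339% in nucleoplasm libraries. Scaling to them raised the log2 difference of every member. The cause of the unequal shares was not tested. ERCC scaling left 4 members lower. In the fit reported above, asking for a difference of over 4 fold left 0 lower and 0 higher. A minimum overlap of 0.8 left 0 higher, because Cpt1b (and Fabp3) had no locus. Without 1 library at a time 9 were lower and 1 higher. Of the other fatty acid genes, 14 were lower and 15 higher under ERCC scaling, and 2 and 1 past 4 fold, the 1 being Ucp3. Without 1 library 21 to 23 were lower and 8 to 9 higher, and 14 were higher with the replicate block. The block, which follows the pairing of replicate numbers, changed no member's call. With it each ratio gave p = 0.25 (exact permutation test), the smallest that 3 pairs allow, and every pair of a ratio went the same way. Abcd3 and Rxra changed direction under ERCC scaling (0.61, limma adjusted p = 0.031, and 0.17, 0.64). Of genes called in neither fit, Acadl (0.65), Eci1 (0.55), Ehhadh (0.51) and Lipe (0.15) changed sign under it, Acsl4 (-0.10) and Angptl4 (-0.08) under quantile normalization, and Acadl also without chromatin replicate 3 (0.20), nucleoplasm replicate 1 (0.04) or both libraries numbered 3 (0.06). Without 1 library the ratio differences ranged from -0.76 to -0.50 for Hadha over Hadhb, -2.76 to -2.49 for Cpt1a over Cpt1b and 2.60 to 3.30 for Cpt1b over Cpt2. The long-read sum of the members, 268 TPM, was 81.3 with accession entries only, 178 with ends strictly inside the gene and 207.5 to 329 in single libraries. The rho of 0.90 was 0.47 without division by length and 0.75 to 0.93 without 1 library.

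With 3 libraries a group, no exact test of a single value can pass 0.05. Recovered reads of the members ranged from 124 to 18017 per library, and the long-read TPM carry no depth.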
